A study of Mus musculus with 10 samples.

Results

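The broad Dlx2-enriched regions of the embryonic mouse forebrain were selected on their width. Every region at least 2000 bp wide on chromosomes 1 to 19 and X was taken from the region lists of the basal ganglia (BG) and the cortex (CX) at embryonic day 16 (E16). Regions that overlapped by at least 1 bp were merged. The BG E16 list gave 531 such regions and the CX E16 list 517, which merged into 691 broad regions out of 16669 merged regions of any width in both lists together, or 4.15%. The lists come from chromatin immunoprecipitation and sequencing (ChIP-seq) with an antibody against Dlx2. One list was deposited for each of BG E16, CX E16, the olfactory bulb at E16 (OB E16), the olfactory bulb at postnatal day 3 (OB P3) and CX P3, with 1 immunoprecipitated library per group. Strain, genotype, sex and the number of animals behind a library are not given in the labels, and all 5 groups are dissected tissue that holds several cell types. With no replicate library, no value below carries a p-value between tissues or ages.

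Dlx genes encode homeodomain transcription factors, which recognise short AT-rich sequences centred on TAAT. In the forebrain they are made mainly in progenitors and young neurons of the ganglionic eminences, the embryonic basal ganglia, from which GABAergic interneurons migrate to the cortex and the olfactory bulb. A single bound site usually gives an enriched region about as wide as the sheared fragments, here 300 to 1000 bp. The regions described here are wider than any such fragment.

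Sequences of some microRNAs whose genes lie in broad regions are shown first. Of these, only miR-9 is encoded in any of the 10 widest regions. MicroRNAs are short RNAs that repress messenger RNAs by pairing through the seed, bases 2 to 8, which is in capitals here. miR-9 is a neural microRNA that acts in progenitors and new neurons, let-7 a family that promotes differentiation, and miR-137 and miR-128 are enriched in neurons. The let-7b and let-7c sequences share 1 seed, and miR-92b and miR-25 share another. Sequences are those of RefSeq, GRCm38.p6. These microRNAs were singled out after the overlaps were seen.
mmu-miR-9-5p: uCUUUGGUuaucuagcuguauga
mmu-miR-9-3p: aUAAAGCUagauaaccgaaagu
mmu-let-7b-5p: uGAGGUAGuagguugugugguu
mmu-let-7c-5p: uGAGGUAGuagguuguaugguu
mmu-miR-137-3p: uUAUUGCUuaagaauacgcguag
mmu-miR-128-3p: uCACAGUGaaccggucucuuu
mmu-miR-92b-3p: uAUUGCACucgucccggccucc
mmu-miR-25-3p: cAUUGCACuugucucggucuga

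Promoters are shown for 5 loci whose annotated transcription start lies inside a broad region and to which the results return. The first 4 hold summits of other tissues or ages, and the last 2 are among the 10 widest. Each sequence gives the 250 bases before a RefSeq start (GRCm38.p6), on the strand of the gene. Capitals mark TAATTA, a homeodomain core, CAGCTG, an E-box, GGGCGG, a GC box bound by Sp factors, and CCAAT, bound by nuclear factor Y. Each was searched on both strands, so that ATTGG and CCGCCC mark a match on the opposite strand, and no motif contains another. They lie at chr11:120231618-120231867 on the minus strand (2900052L18Rik), chr2:73271676-73271925 on the plus strand (Sp9, a zinc finger factor of GABAergic progenitors), chr2:45110278-45110527 on the minus strand (Zeb2, a zinc finger factor of migrating interneurons), chr1:42695518-42695767 on the plus strand (Pou3f3) and chr7:79515185-79515434 on the plus strand (Mir9-3hg, 1 of its starts).
2900052L18Rik: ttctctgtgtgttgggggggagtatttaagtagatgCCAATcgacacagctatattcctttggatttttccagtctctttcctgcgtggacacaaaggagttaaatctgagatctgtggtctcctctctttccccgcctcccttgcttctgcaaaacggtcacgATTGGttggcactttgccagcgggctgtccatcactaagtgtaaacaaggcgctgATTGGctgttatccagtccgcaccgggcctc
Sp9: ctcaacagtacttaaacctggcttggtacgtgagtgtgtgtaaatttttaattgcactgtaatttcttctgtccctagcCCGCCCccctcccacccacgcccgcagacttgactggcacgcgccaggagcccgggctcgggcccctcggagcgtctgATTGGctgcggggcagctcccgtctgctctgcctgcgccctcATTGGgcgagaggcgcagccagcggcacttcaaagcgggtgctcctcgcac
Zeb2: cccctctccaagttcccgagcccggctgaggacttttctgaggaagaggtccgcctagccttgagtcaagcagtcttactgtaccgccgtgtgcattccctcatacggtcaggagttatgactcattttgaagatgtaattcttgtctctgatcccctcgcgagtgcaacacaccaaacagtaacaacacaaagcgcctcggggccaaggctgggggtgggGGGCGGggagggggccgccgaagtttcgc
Pou3f3: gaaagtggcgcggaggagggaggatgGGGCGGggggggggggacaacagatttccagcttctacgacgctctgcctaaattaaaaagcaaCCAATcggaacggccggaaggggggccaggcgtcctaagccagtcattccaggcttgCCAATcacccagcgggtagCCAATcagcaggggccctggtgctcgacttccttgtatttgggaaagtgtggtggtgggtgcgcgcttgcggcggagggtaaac
Mir9-3hg: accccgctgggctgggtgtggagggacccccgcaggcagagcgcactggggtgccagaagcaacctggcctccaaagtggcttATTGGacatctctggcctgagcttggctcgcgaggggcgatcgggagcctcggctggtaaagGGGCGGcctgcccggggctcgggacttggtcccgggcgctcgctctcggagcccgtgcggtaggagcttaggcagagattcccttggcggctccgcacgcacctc

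Of the 4 motifs, GGGCGG and CCAAT occurred in these 5 promoters and TAATTA and CAGCTG did not. Over all 150 promoter entries (130 genes) whose start lay in a broad region, with 50 bases after the start included, TAATTA was present in 3.33% (95% interval 1.09 to 7.61%). It was present in 10.0% of the 680 entries with a start in a narrower region (7.85 to 12.5%) and in 5.25% of all 32619 entries of the table. GGGCGG was present in 54.7% of the broad-region promoters, 43.2% of the narrower-region promoters and 35.9% of all. CAGCTG was present in 18% of the broad-region promoters, 22.4% of the narrower-region promoters and 16.4% of all. CCAAT was present in 39.3% of the broad-region promoters, 41.2% of the narrower-region promoters and 37.6% of all. Median GC content was 59.7% in the broad-region promoters, 55.7% in the narrower-region promoters and 53.0% in all. A motif match is a description of the letters and not a bound site.

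The 691 broad regions covered 2.71 Mb, and the 15978 narrower merged regions, which overlap none of them, covered 9.87 Mb. The minimum width, here and in the alternatives below, was required of a list region before merging. Some narrower merged regions therefore reached 2000 bp only through merging, and they count by merged width in the width classes below. Median width was 2987 bp for the broad regions, with quartiles of 2382 and 4290 bp, and 497 bp for the narrower ones. Of the broad regions, 344 reached 3000 bp, 131 reached 5000 bp and 28 reached 10000 bp. Broad regions made up 3.60% of the BG E16 list and 19.1% of its covered bases, and 8.20% of the CX E16 list and 33.2% of its bases. On these chromosomes the OB E16 list had 2 regions of that width among 1665 (0.12%), the OB P3 list 1 among 732 (0.137%) and the CX P3 list 4 among 2116 (0.189%). None of those overlapped a BG or CX broad region. All 3 lists are shorter than the BG E16 list, with 14732 regions there, and the CX E16 list, with 6307. The BG E16 and CX E16 lists also share a pattern of peak names that no other list has, so the tissue and age of these lists cannot be told apart from the way they were made. The authors' fold enrichment, the ratio of signal at the summit over local background, had a median of 9.97 over the BG broad regions and 4.49 over the narrower BG regions. In the CX list the median was 12.2 over the broad and 5.00 over the narrower regions. Width and fold come from the lists that chose the regions and are descriptions.

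Widths ran on across the threshold. The BG regions just inside it were 2000, 2003 and 2005 bp wide, at Gm46091, Rad17 and Ptprs, and those just outside were 1998, 1992 and 1989 bp wide, at Zfp740, Zfp467 and Chmp2a. The CX regions just inside were 2003, 2004 and 2005 bp wide, at Zmynd8, Inhbb and Dpysl5, and those just outside were 1998, 1995 and 1992 bp wide, at Cntn2, Zbtb11 and Dlx6os1.

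The widest broad regions lay at microRNA-9 genes and at genes of forebrain transcription factors. The widest of all, at chr7:79501332-79529213, spanned 27.9 kb of Mir9-3hg, the host gene of Mir9-3. It consisted of 5 BG regions covering 26.9 kb and 1 CX region covering 27.6 kb, with highest folds of 46.8 in BG and 63.0 in CX. The next, at chr3:88207553-88231922, spanned 24.4 kb over the noncoding gene Gm3764 and Mir9-1, with 23.9 kb in BG and 23.0 kb in CX. The remaining Mir9 gene, Mir9-2, lay in a region of 13.8 kb at chr13:83729348-83743122, which BG regions covered for 13.8 kb and CX regions for 13.4 kb. All 3 genes that encode the miR-9 sequences printed above thus lay in broad regions of both tissues, with nearly the same length in BG and CX.

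Among transcription factor genes, Pou3f3, a POU homeodomain factor of cortical neurons, lay whole inside a 15.0 kb region with folds of 55.7 in BG and 63.2 in CX. Mn1, a transcriptional coregulator, had an 18.9 kb region with 18.9 kb in BG and 18.3 kb in CX. Bcl11a, a zinc finger factor of cortical projection neurons, had 17.8 kb, with 17.5 kb in BG and 17.8 kb in CX. Other wide regions were unequal between the tissues. Lhx2, a LIM homeodomain factor of the cortical primordium, had an 18.9 kb region that BG regions covered for 5.13 kb and CX regions for 18.9 kb. Nfix, a nuclear factor I gene, had regions of 18.6 kb (3.37 kb in BG, 18.6 kb in CX) and 14.4 kb (7.27 kb in BG, 14.4 kb in CX). In the opposite direction, Sox1, an SRY-related factor of neural progenitors, had a 14.9 kb region with 14.9 kb in BG and 7.84 kb in CX. The noncoding gene 3110039M20Rik had 14.4 kb in BG and 13.2 kb in CX.

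**Figure D1:**
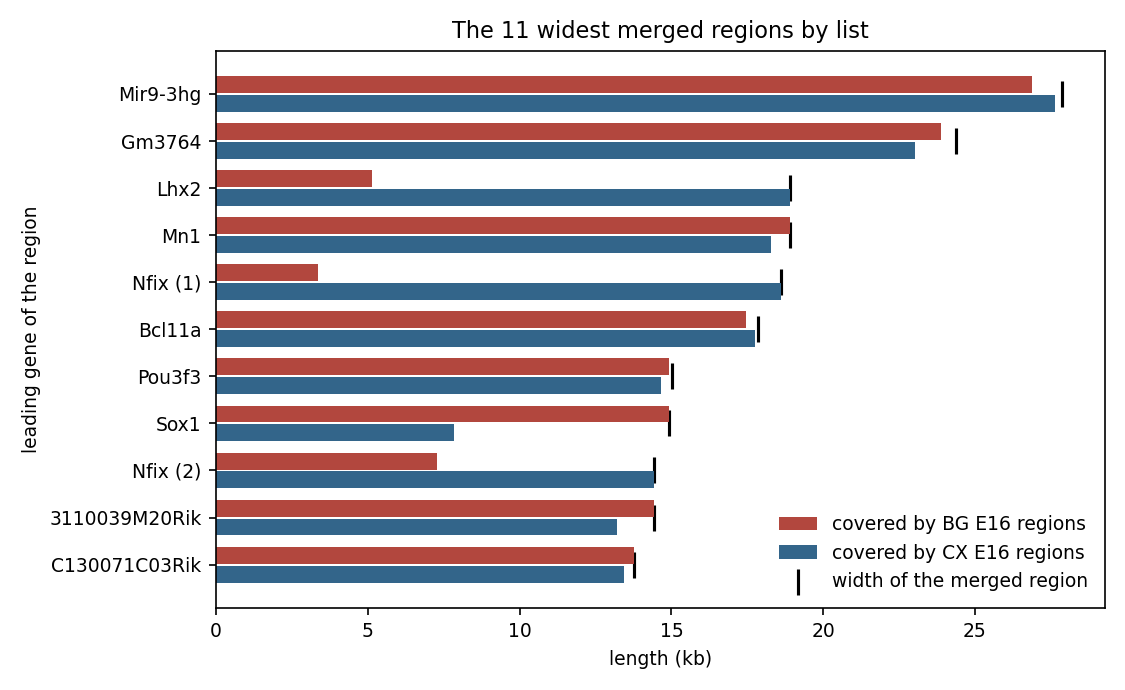
Length covered by BG E16 regions (red, upper bar) and CX E16 regions (blue, lower bar) within each of the 11 widest merged regions, in kb, with the width of the merged region as a black tick and 1 library per list. The 3 Mir9 loci (Mir9-3hg, Gm3764 and C130071C03Rik) are covered to nearly their full width in both lists, whereas Lhx2 and both Nfix regions are mostly CX, and Sox1 has more BG than CX.

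Some genes carried a row of separate broad regions. Of the genes that led a region, meaning that they had the most bases in it, 440 led 1, 86 led at least 2 and 10 led at least 4. Nfix, Meis2 (a TALE homeodomain factor of striatal neurons) and Tcf4 (an E-protein) led 9 each. The 9 Nfix regions together held 18.4 kb of BG and 75.3 kb of CX sequence, and those of Tcf4 held 11.4 kb of BG and 31.0 kb of CX. The 9 Meis2 regions held 43.1 kb of BG and 26.0 kb of CX. The 4 regions of Ptprn2, a receptor-type tyrosine phosphatase gene of secretory vesicles, held 22.0 kb of BG and 1.46 kb of CX. Genes with several regions were picked out after their counts were seen.

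The regions with the highest −log10 q, the authors' measure of significance at the summit, were only partly the widest. Pou3f3 had 395 in BG and 434 in CX, and Mex3a, which encodes an RNA-binding protein, 389 in BG and 474 in CX. Mir9-3hg had 372 in BG and 421 in CX. Fam171a2 had 334 in BG and 399 in CX, and Zfp316, a zinc finger gene, 321 in BG and 387 in CX. Mex3b, an RNA-binding protein related to Mex3a, had 316 in BG and 358 in CX, and 2700081O15Rik 341 in BG and 365 in CX. Marcks, an actin-binding substrate of protein kinase C in growth cones, had 341 in BG and 273 in CX. Dchs1, a giant cadherin, had 305 in BG and 357 in CX, and Mast1, a microtubule-associated kinase, had 277 in BG and 329 in CX. Several of these regions were of modest width: 3.30 kb at Mast1, 4.14 kb at Dchs1, 4.95 kb at Mex3b and 5.03 kb at Zfp316.

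Nearly all broad regions were present in both tissues. Regions of any width from both lists lay in 652 of the 691, or 94.4% (exact 95% interval 92.4 to 96.0%), against 17.1% of the narrower merged regions (16.5 to 17.7%). A wide region has more room for an overlap and is stronger, so this difference is a description. Of the 691, 329 were broad in both lists, 189 in BG alone and 173 in CX alone. A broad region could be broken into up to 8 separate BG regions or up to 7 CX regions. BG bases were the more in 374 and CX bases in 317.

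In 24 broad regions the CX list had no region, and in 15 the BG list had none. Those with no CX region included Six3, a homeodomain factor of the ventral forebrain, with 5.20 kb and a BG fold of 8.38. They also included Zfp503, a zinc finger factor of striatal neurons, with 4.91 kb and a BG fold of 19.4, and Meis1, a TALE homeodomain factor related to Meis2, with 4.62 kb and a fold of 9.86. A region of 4.74 kb lay 119 kb from its nearest protein-coding gene, Usp25, and 1 of the Ptprn2 regions had 3.98 kb. Those with no BG region included Emx1, a homeodomain factor of cortical progenitors, with 6.28 kb and a CX fold of 19.7. They also included 2 of the Nfix regions, with 6.44 and 5.08 kb, Nfia (another nuclear factor I gene) with 3.18 kb, and Ifnar1 (an interferon receptor subunit) with 2.60 kb.

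Broad regions lay mostly over genes, and held the annotated end of a gene more often than its start. Of the 691, 623 overlapped at least 1 protein-coding gene, 47 overlapped only other annotated genes and 21 overlapped none. They covered 603 of 21631 protein-coding genes by at least 1 bp, a background of 2.79%, and 24 genes, 0.111% of all, lay whole inside 1 of them. Covered genes had a median length of 15.0 kb, against 17.4 kb for genes not covered, and a median of 18.9% of the gene body lay in broad regions.

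The strand was known for 453 of the 603 covered genes. Their annotated end lay inside a broad region in 202, or 44.6% (39.9 to 49.3%), their start in 51, or 11.3% (8.50 to 14.5%), and neither in 218, or 48.1%. Start and end here are the outer boundaries of the gene. With any RefSeq start of a gene counted, 89 had a start inside, or 19.6% (16.1 to 23.6%), against 12.6% of the genes overlapped by narrower regions (11.5 to 13.7%), a count chosen after seeing the data. The 3526 genes overlapped by narrower regions had their end inside a region in 9.08% (8.15 to 10.1%) and their start in 9.44% (8.50 to 10.5%). A wide region has more room for a gene boundary, so shares of broad and narrower regions are descriptions. Per Mb of region, gene ends numbered 74.5 in broad and 32.4 in narrower regions, and gene starts 18.8 in broad and 33.75 in narrower regions. Gene bodies were also divided into 10 equal parts, with part 1 at the start and part 10 at the end. In genes overlapped by broad regions, 14.2% of part 1, 30.8% of part 5 and 45.7% of part 10 were covered on average. The coverage rose at every step. For genes overlapped by narrower regions it was 6.33% in part 1, 6.05% in part 5 and 9.39% in part 10. Width was the criterion of selection but position within a gene was not. Genes share regions and are not replicates, and the table used here gives neither exons nor untranslated regions. The share with the end inside was 68.2% for regions of 5000 bp or more (88 genes), where the share with the start inside was 22.7%.

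**Figure D2:**
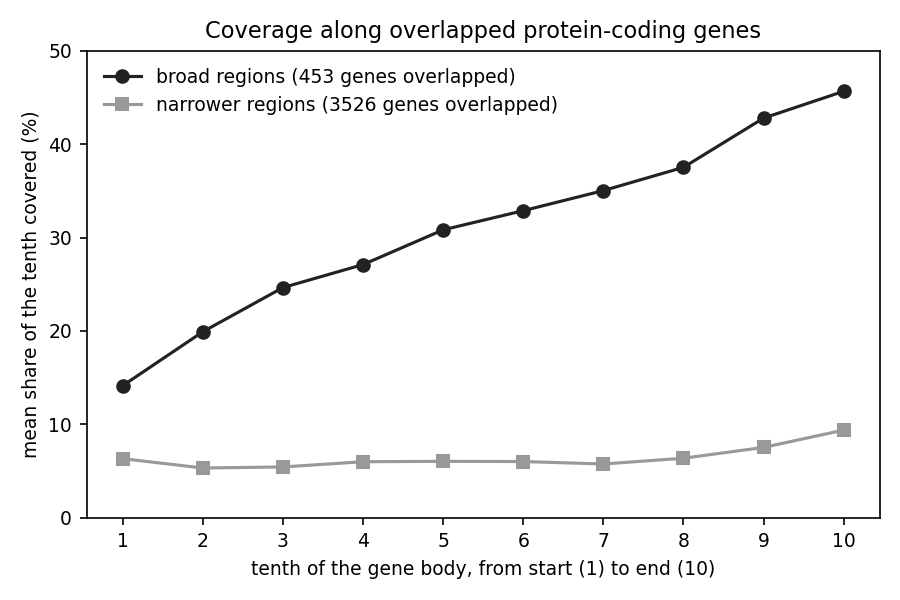
Mean share of each of 10 equal parts of the gene body covered, in percent, from annotated start (1) to end (10), for the 453 protein-coding genes overlapped by broad regions (black circles) and the 3526 overlapped by narrower regions (grey squares), where the strand was known. The broad-region line climbs between 14.2% at the start and 45.7% at the end, and the narrower-region line stays between 5.33% and 9.39%.

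The longest genes lying whole inside a broad region included forebrain transcription factor genes and genes of general or neuronal function. Among them were Eef2 (5.88 kb, translation elongation), Ajm1 (4.68 kb), Dlx6 (4.64 kb), Pou3f3 (4.44 kb), Cdk5r1 (4.16 kb, the neuronal activator of Cdk5), Sox1 (4.04 kb), Sp9 (3.85 kb), Dlx2 (3.35 kb) and Lyl1 (3.29 kb, a basic helix-loop-helix factor). The 24 had a median length of 2772 bp. A whole gene fits more easily the shorter it is.

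The Dlx family was covered at 4 of its 6 genes, Dlx1, Dlx2, Dlx5 and Dlx6, which are the pairs used in the forebrain. Counts of this and the following gene lists stand beside 2.79% of all protein-coding genes, 45.0% of ubiquitous genes and 53.3% of cytosolic ribosomal protein genes. Dlx2, the immunoprecipitated factor itself, lay whole inside the region chr2:71540119-71546773, with 6.66 kb in BG and 4.26 kb in CX and folds of 35.3 in BG and 12.8 in CX. Dlx5 and Dlx6 lay in adjoining regions of 13.0 kb (chr6:6868297-6881303) and 12 kb (chr6:6856271-6868222), separated by a gap in the BG list. BG regions covered them in 1 piece each, whereas CX regions covered 5.08 kb in 5 pieces at Dlx5 and 4.16 kb in 4 pieces at Dlx6. Folds were 35.6 in BG and 10.6 in CX at Dlx5, and 23.0 in BG and 8.67 in CX at Dlx6. Dlx1 had 7.32 kb in BG and 4.01 kb in CX.

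Genes of GABA synthesis and transport were covered in 3 of 7, and all 3 had more BG than CX bases. Within the gene body, Gad1, a glutamate decarboxylase that makes GABA, had 7.69 kb in BG and 5.30 kb in CX. Gad2, its paralogue, had 12.5 kb in BG and 1.58 kb in CX. Slc32a1, the vesicular GABA transporter, had 4.21 kb in BG and 1.87 kb in CX, and folds of 33.0 in BG and 12.6 in CX. More BG bases were not particular to this list. Ubiquitous genes had more BG bases in 8 and more CX bases in 1, ribosomal protein genes in 10 and 6. Synaptic vesicle and scaffold genes had more BG bases in 5 and more CX bases in 0. The median BG minus CX length was 2.39 kb for the GABA list, 0.11 kb for ubiquitous, 0.0375 kb for ribosomal and 0.577 kb for synaptic genes.

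Transcription factors of the GABAergic lineage were covered in 14 of 31, 11 with more BG bases and 3 with more CX bases. Meis2 had 39.1 kb in BG and 22.2 kb in CX within its body, and Bcl11b (a zinc finger factor of striatal and subcerebral neurons) 22.4 kb in BG and 13.3 kb in CX. Zeb2 was 1 of the 3 with more in CX, at 10.2 kb in BG and 11.4 kb in CX. Transcription factors of the glutamatergic lineage, which builds cortical projection neurons, were covered in 10 of 23, 1 with more BG bases and 9 with more CX bases. Lhx2 had 5.82 kb in BG and 21.6 kb in CX, and Pax6, a paired homeobox factor of cortical progenitors, 6.63 kb in BG and 10.7 kb in CX. Bcl11a had 17.5 kb in BG and 17.8 kb in CX. Tbr1, a T-box factor of deep-layer neurons, had 4.42 kb in BG and 7.20 kb in CX, with folds of 11.1 in BG and 48.5 in CX. These lengths come from the lists that chose the regions and are given as descriptions. Over all 603 covered genes, 54.4% had more BG bases and 44.0% more CX bases, and the median difference was 0.047 kb. Each tissue is 1 library, and the number of cells of each lineage in a tissue cannot be told apart from the binding per cell.

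**Figure D3:**
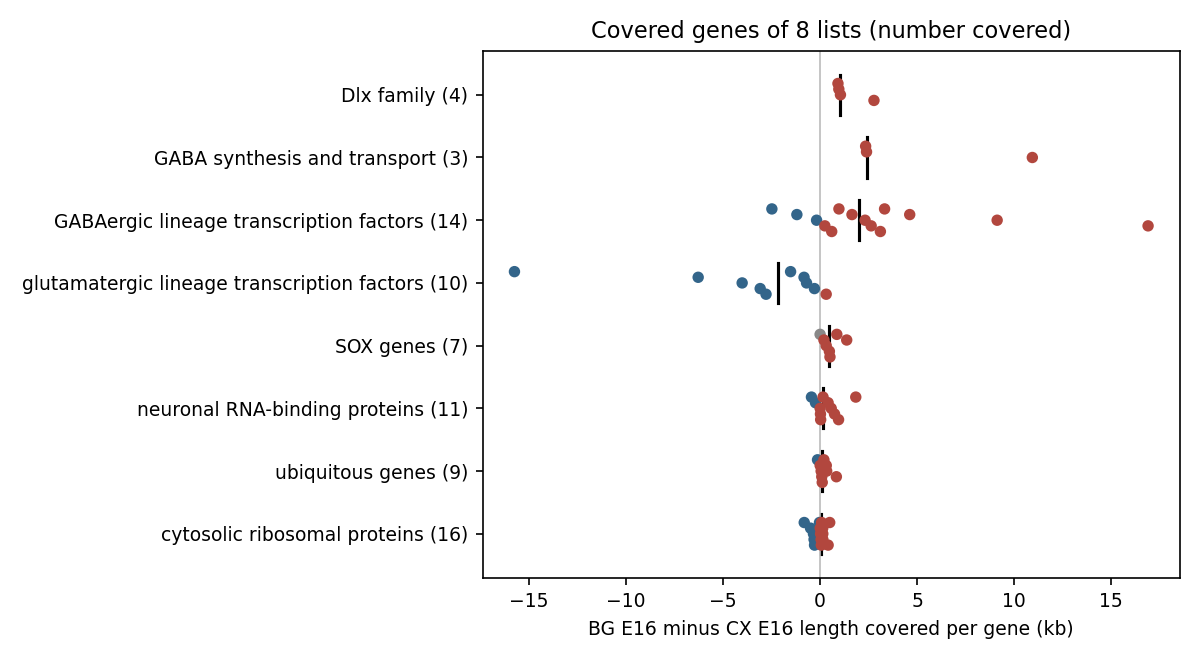
Length of each covered gene's body in BG E16 broad-region sequence minus that in CX E16, in kb, for the covered genes of 8 lists, with 1 point per gene (red: more in BG, blue: more in CX, grey: equal) and the list median as a black line. Points of the Dlx and GABA synthesis lists lie right of 0, 9 of 10 glutamatergic factors lie left of it, and ubiquitous and ribosomal genes lie close to 0.

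Other neural gene groups were covered in both tissues. SOX genes were covered in 7 of 12, 6 with more BG bases and 1 equal. Sox11 (8.45 kb long) had 7.97 kb in BG and 7.49 kb in CX, Sox4 4.28 kb in BG and 3.96 kb in CX, and Sox2, whole inside its region and named after its value was seen, 2.47 kb in both. Neuronal RNA-binding proteins were covered in 11 of 27, 9 with more BG and 2 with more CX bases. Msi1, a regulator of translation in neural progenitors, had 11.7 kb in BG and 11.1 kb in CX, the splicing regulator Nova2 10.2 kb in BG and 10.6 kb in CX, and Ptbp1, the splicing repressor of progenitors, 8.09 kb in BG and 8.33 kb in CX. Growth cone and cytoskeleton genes were covered in 9 of 25, 6 with more BG and 3 with more CX bases, among them Map1b, a microtubule-associated protein, with 20.6 kb in BG and 17.1 kb in CX, and Dpysl2, a tubulin-binding protein of axon growth, with 6.07 kb in BG and 10.3 kb in CX. Chromatin regulators were covered in 8 of 36, led by Brd2, a bromodomain protein, with 7.89 kb in BG and 7.20 kb in CX.

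Cadherin giants were covered in 3 of 9, synaptic vesicle and scaffold genes in 5 of 32, semaphorins and plexins in 4 of 29, and voltage-gated calcium channel genes in 3 of 18. Celsr2, an atypical cadherin of planar polarity, had 6.28 kb in BG and 9.48 kb in CX, and Nrxn2, a presynaptic adhesion protein, 6.55 kb in BG and 6.17 kb in CX. POU genes were covered in 1 of 11 (Pou3f3). None of the 25 listed Hox cluster genes or the 20 listed Notch pathway genes was covered. For lists of this length that is near the 2.79% of all protein-coding genes. The Notch list is partial. Lfng and Dtx1, Notch regulators outside it, were covered by 2.75 kb (Lfng) and 3.77 kb (Dtx1), and were named after their values were seen.

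Genes that most cells transcribe were also covered. Cytosolic ribosomal protein genes were covered in 16 of 30, although Rpl23 by 6 bp only (named after its value was seen), and ubiquitous genes in 9 of 20. Eef2 had 5.88 kb in both lists with folds of 15.1 in BG and 30.7 in CX, and Gapdh, a glycolytic enzyme, 4.14 kb in BG and 3.30 kb in CX with folds of 18.2 in BG and 27.1 in CX. Hsp90ab1, a chaperone, had 5.05 kb in BG and 4.96 kb in CX, and Rpl13a 2.70 kb in BG and 2.73 kb in CX. The shares were 53.3% and 45.0%, beside 2.79% of all protein-coding genes. The shares of the other gene groups with any covered gene ran between 9.09% (POU genes) and 66.7% (Dlx family), and their differences from these lists were not tested. Ribosomal protein genes have near-identical processed copies elsewhere in the genome, and how reads that match several places were placed is not stated in the labels.

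Few of the listed markers of other cell types were covered. None of 11 listed microglia and blood markers, 9 endothelial and mural markers, or 12 liver and muscle genes was covered. For lists of this length that is near the 2.79% of all protein-coding genes. These lists are partial. Outside them, Cd68, a macrophage gene, was covered by 0.973 kb, and Gp1bb, a platelet gene, lay whole inside a broad region. Both were named after their values were seen. Of 10 oligodendrocyte markers only Olig2, which ventral forebrain progenitors also make, was covered, with 2.80 kb in BG and no CX region. Of 8 astrocyte markers only Fgfr3, also present in cortical progenitors, was covered, with 0.586 kb in BG and 3.53 kb in CX.

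Of the 1005 microRNA hairpins of the RefSeq table, 37, or 3.68%, lay inside a broad region, in 27 broad regions. Of all protein-coding genes, 2.79% were overlapped by at least 1 bp and 0.111% lay whole inside. Hairpins are much shorter than most gene bodies, so neither share is a like-for-like background. Not all are known for neural roles: Mir141 and Mir200c shared a region of 2.76 kb, and Mir23a, Mir27a and Mir24-2 one of 2.96 kb. Apart from the Mir9 genes, Mir137 lay in a 3.10 kb region with 3.10 kb in BG and 2.25 kb in CX. Mir128-2, inside Arpp21, lay in one of 2.55 kb with 2.55 kb in BG and 2.27 kb in CX, whereas Mir128-1 lay in none. Mirlet7b and Mirlet7c-2, whose products share the let-7 seed printed above, lay in 1 region of 10.2 kb that BG regions covered for 2.58 kb and the CX region for its full length. Mir25, Mir93 and Mir106b, inside the replication gene Mcm7, shared a region of 4.64 kb with 3.25 kb in BG and 4.64 kb in CX. Mir92b, with the seed of miR-25, lay in a region of 4.77 kb with 4.38 kb in BG and 4.49 kb in CX. The microRNAs described were chosen after their values were seen.

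Summits of the 3 other lists, which took no part in choosing the broad regions, fell in few of them. OB E16 summits lay in 29 of the 691, or 4.20% (2.83 to 5.97%), against 7.25% of the narrower regions (6.86 to 7.67%) and a background of 7.13% over all merged regions. OB P3 summits lay in 9, or 1.30% (0.597 to 2.46%), against 2.87% of the narrower regions (2.62 to 3.14%) and a background of 2.81%. CX P3 summits lay in 21, or 3.04% (1.89 to 4.61%), against 3.66% of the narrower regions (3.37 to 3.96%) and a background of 3.63%. A summit of any of the 3 lists lay in 38, or 5.50% (3.92 to 7.47%), against 9.98% of the narrower regions (9.52 to 10.5%) and a background of 9.79%. The intervals of the broad and the narrower regions overlap for CX P3 and do not overlap for OB E16, OB P3 or any list. Intervals cover counting error only.

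Summits per Mb of region are given as a description, since the length they are divided by is what chose the broad regions. OB E16 summits numbered 12.2 per Mb of broad region and 118 per Mb of narrower region, OB P3 summits 3.32 per Mb of broad and 46.6 per Mb of narrower region, and CX P3 summits 11.4 per Mb of broad and 59.5 per Mb of narrower region. By width of the merged region, OB E16 summits lay in 3.80% of those under 500 bp, 11.5% of those of 500 to 1000 bp, 8.71% of those of 1000 to 2000 bp, 3.59% of those of 2000 to 5000 bp and 6.82% of the 132 regions of 5000 bp or more. In the same order of width, OB P3 summits lay in 1.68%, 4.46%, 3.14%, 0.625% and 3.79%, and CX P3 summits in 2.30%, 5.26%, 4.54%, 2.19% and 6.06%. In the widest class the OB P3 and CX P3 shares were above those of the narrower regions (2.87% and 3.66%), and the intervals were wide, such as 3.17 to 12.5% for OB E16. With broad regions of the CX list alone, OB E16 summits lay in 1.55%, and with those of the BG list alone in 4.90%. The summits that did fall in broad regions had a median fold of 5.41 in OB E16 (whole list 5.26), 5.39 in OB P3 (5.70) and 4.16 in CX P3 (4.47). Above the median of their list were 19 of 33 in OB E16, 3 of 9 in OB P3 and 12 of 31 in CX P3. These summits marked narrow regions, since 33 of 33, 9 of 9 and 29 of 31 were under 1000 bp wide.

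**Figure D4:**
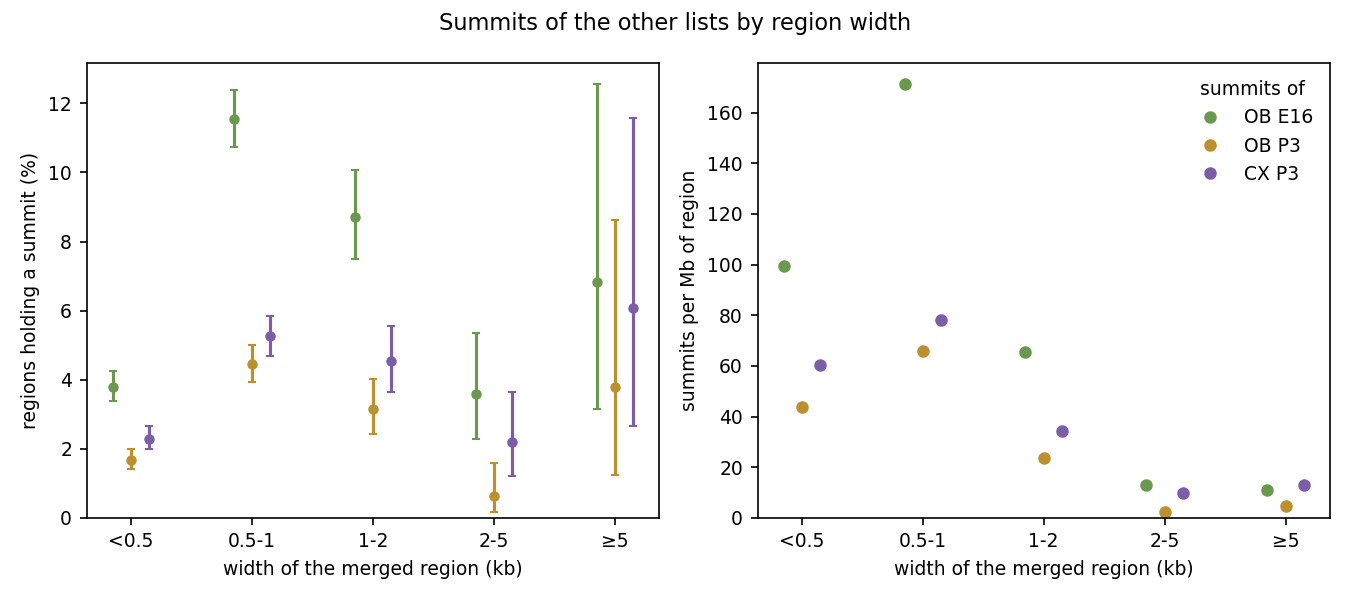
Left: share of merged BG and CX E16 regions that hold a summit of the OB E16 (green), OB P3 (ochre) or CX P3 (purple) list, in percent with exact 95% intervals, by width of the merged region. Right: summits per Mb of region. The share is highest at 0.5 to 1 kb in the OB E16 list, at 11.5%, and the density is at most 13.1 per Mb in both classes of 2 kb or more, in every list.

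The 73 summits inside broad regions fell on 52 sites, counting summits within 200 bp of each other as 1. Of these, 36 were in 1 list, 11 in 2 and 5 in all 3. Within 200 bp of a summit of the BG E16 list lay 40 of the 73 (median distance 137 bp), and within 200 bp of a CX E16 summit lay 25 of the 66 that share a region with the CX list (median 502.5 bp). Distances are to the nearest summit of each list, which need not be the highest point of the broad region. Some summits far from a BG E16 summit lay near a CX E16 summit, as at Gad1 below.

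The 5 sites present in all 3 other lists lay in the broad regions led by Dlx6, Dlx5, 2900052L18Rik and Gm40421 and in one near Rpp25. The sites in the Dlx5 and Dlx6 regions lay outside the bodies of both genes, within that of the noncoding gene Dlx6os1. In the Dlx5 region the summits lay 10 bp (OB E16, fold 15.2), 1 bp (OB P3, fold 13.4) and 94 bp (CX P3, fold 5.02) from the BG E16 summit. In the Dlx6 region they lay 13 bp (OB E16, fold 8.77), 124 bp (OB P3, fold 5.17) and 78 bp (CX P3, fold 9.20) from the BG E16 summit there. The Rpp25 region, chr9:57501447-57503709, lies 392 bp outside that gene, which encodes an RNA-processing subunit. Its summits lay 26 bp (OB E16, fold 10.1), 16 bp (OB P3, fold 6.97) and 11 bp (CX P3, fold 4.16) from the BG summit. The Gm40421 region, at chr12:50999647-51002973, had a BG fold of 27.0 and a CX fold of 5.64, and folds of 6.33 in OB E16, 5.65 in OB P3 and 3.06 in CX P3. At 2900052L18Rik all 3 summits lay within 13 bp of the BG summit and next to the start whose promoter is printed above, with folds of 3.49 in OB E16, 5.39 in OB P3 and 2.38 in CX P3. These are short positions, 300 to 986 bp wide in the other lists at the Dlx5 and 2900052L18Rik sites, inside regions that BG E16 covers for 2.26 to 13.0 kb.

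**Figure D5:**
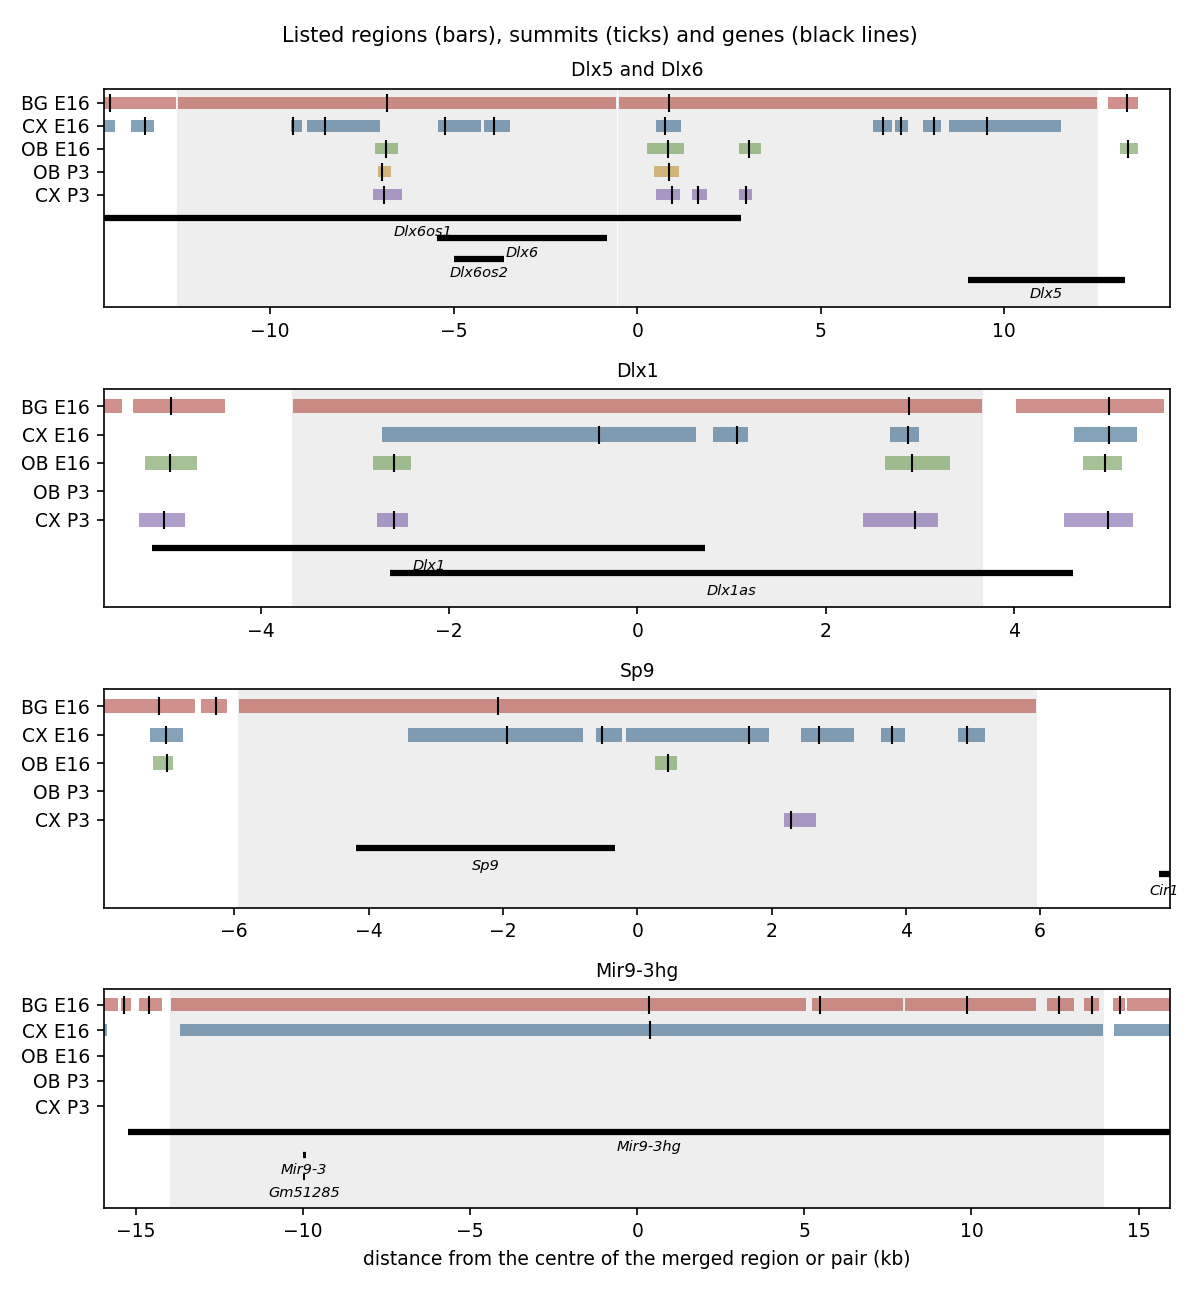
Regions (bars) and their summits (ticks) of the 5 lists at 4 stretches, with genes as black lines, broad merged regions shaded, and distance from the centre of the stretch in kb. The Dlx5 and Dlx6 regions each hold 1 position shared by OB E16, OB P3 and CX P3 at the BG E16 summit, outside the bodies of both genes and within Dlx6os1. The Dlx1 and Sp9 regions hold OB E16 and CX P3 summits and none of OB P3, and the 27.9 kb Mir9-3hg region holds none.

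A further 11 broad regions held summits of 2 other lists. The Dlx1 region held 2 sites with OB E16 and CX P3 summits. At the stronger of them, outside the Dlx1 body, the folds were 10.6 in OB E16 and 5.77 in CX P3, at 28 bp (OB E16) and 56 bp (CX P3) from the BG summit. Gad1 held summits of OB E16 (fold 8.18) and OB P3 (fold 5.36). They lay 4044 bp (OB E16) and 4006 bp (OB P3) from the BG summit, and 190 bp (OB E16) and 152 bp (OB P3) from a CX summit. Zeb2 held summits of OB E16 (fold 5.31) and OB P3 (fold 4.66), upstream of the start whose promoter is printed above. Apc2, a relative of the Apc tumour suppressor in neurons, held OB E16 (fold 6.95) and OB P3 (fold 4.86) summits at the same base. The Sp9 region held an OB E16 and a CX P3 summit at separate places outside the gene body, with folds of 3.86 in OB E16 and 3.87 in CX P3. Dlx2 and Gad2 held none.

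Of the 10 widest regions, 2 held a summit of another list, 1 OB E16 summit each at Pou3f3 (fold 4.43) and Sox1 (fold 5.37). The Pou3f3 summit lay within the 250 promoter bases printed above. Around the Mir9 genes, the Mir9-2 region held 2 CX P3 summits, with folds of 3.65 and 11.2. A separate 2.91 kb BG region beside Mir9-1, with no CX region, held 2 OB E16 summits, with folds of 3.67 and 7.31. Downstream of the Mir9-3 region, a 3.29 kb region at Gm31740, named after its value was seen, held the highest fold of all CX P3 summits inside broad regions, 12.3.

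A pair of broad regions had low folds in every list that reported them. The region over Rn18s-rs5, annotated with an 18S ribosomal RNA name, at chr17:39845201-39848813, had folds of 2.13 in BG and 1.83 in CX, 1 OB E16 summit of fold 1.53 and 3 CX P3 summits of fold 1.56, 1.68 and 1.78. The region at chr14:19416902-19419260, 114 kb from Gm2244, had a BG fold of 1.33, no CX region and 3 CX P3 summits of fold 1.39, 1.29 and 1.33. No other broad region had a highest fold under 3. Without them, CX P3 summits lay in 2.76% of 689 regions and OB E16 summits in 4.06%.

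Broad regions were unevenly spread over chromosomes relative to genes. Per 100 protein-coding genes there were 4.57 on chromosome 12, 4.41 on chromosome 8 and 4.21 on chromosome 2, against 0.725 on the X chromosome and 1.33 on chromosome 16. On chromosome 8, 9 of the 46 lay along Nfix, and chromosome 2 carries Dlx1, Dlx2, Gad1, Gad2, Slc32a1, Sp9 and Meis2.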

How the data were processed

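Per the labels, Dlx2 ChIP-seq libraries of 5 tissue and age groups (1 each) and 5 inputs, not analysed here, were made from chromatin fixed in 1.5% formaldehyde and sequenced as single-ended 50-nucleotide reads. The authors deposited 1 narrowPeak list per library, in build mm10. Per the submitters' processing notes, the tools were Trimmomatic, Bowtie2, SAMtools and MACS2, with no version. For the calling threshold, the control library and the read depth nothing is stated, so the depth is unknown. The deposited fold enrichment (a ratio) and −log10 q values are those of the authors at each summit, and describe regions within a list only. The deposited score column was not used. A mark for removed duplicate reads stands in the peak names of 4 of the 5 lists, not in CX P3. A deeper library can give more, wider and weaker regions.

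Members and gene lists were chosen with earlier results of these data known. Regions were merged at 1 bp or more of overlap with pandas 2.3.3 and numpy 2.4.6, figures drawn with matplotlib 3.10.9, and exact Clopper-Pearson intervals (95%) computed with scipy 1.17.1. The merging of regions and the counting of overlaps and summits were checked on simulated regions. Shares from different lists have no test, since each group is 1 library. Genes, starts and microRNAs came from RefSeq tables of GRCm38.p6 (49997 genes, without exons), and strand from promoter entries. The gene of a region is the protein-coding gene with the most bases in it, then any gene, then the nearest protein-coding gene. Genes named are those at the 10 widest regions, the 10 highest in −log10 q per list, the 10 with summits of the most other lists, the 5 widest missing from either list, the 3 on each side of the threshold per list, the 10 longest whole genes and up to 4 per gene list. All other genes named, microRNAs, their hosts and the loci printed with sequences included, were chosen after their values were seen. The gene lists hold 411 genes in 22 groups. Alternatives varied the minimum width, joining distance, source list, overlap rule and strength of the other lists. Some genes that the rule names are not reported here.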

Additional observations from a re-analysis of the deposited data

Results flagged for a closer look

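Regions of 2000 bp or more also lay outside chromosomes 1 to 19 and X, in data that none of the counts above used. The BG E16 list had 11 of them, 10 on the Y chromosome and 1 on an unplaced stretch assigned to chromosome 4. The CX E16 list had 10, all on the Y chromosome. The widest reached 8087 bp in BG and 14321 bp in CX, and the highest folds were 11.9 in BG and 24.4 in CX. They drew attention as signal outside the regions described, and no list of regions called without the Dlx2 antibody was analysed here.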

How the results depend on the processing

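The minimum width moved the counts by construction, since fewer or more regions pass: there were 1208 regions at 1500 bp, 332 at 3000 bp and 124 at 5000 bp, and 337 and 119 protein-coding genes were covered at 3000 and 5000 bp. Requiring 0.5 of the gene body left 145 genes. The share of regions present in both lists was 87.2% at 1500 bp, 96.4% at 3000 bp and 96.8% at 5000 bp, and 97.1% with regions of the CX list alone. With the CX list alone, OB E16 summits lay in 1.55% of regions, OB P3 summits in 0.580%, CX P3 summits in 1.55% and summits of any list in 2.71%. At 5000 bp the same shares were 7.26%, 4.03%, 6.45% and 10.5%, so the lower share of broad regions than of narrower ones was not seen at that width. With other-list regions of a fold of 5 or more, OB E16 summits lay in 2.46%, CX P3 summits in 1.16% and any in 3.18%. With the 734 strongest regions of each list the shares were 1.88%, 1.16% and 2.89%. The share of covered genes with their end inside was 36.7% at 1500 bp, 56.2% at 3000 bp and 68.2% at 5000 bp, and the share with their start inside was 22.7% at 5000 bp and 19.6% with any RefSeq start of a gene counted; these checks of gene ends, and leaving out the low-fold pair of regions, were chosen after seeing the data. In each of these settings the end lay inside more often than the start. The cause of the changes other than in counts was not tested. The other 52 values stayed within the interval of the reported share or within 1.5 times the reported count. No paired analysis was possible because each group has 1 library and no test was made. Limits are the single library per group, unknown read depth, a gene table without exons and a strand known for 453 of 603 covered genes.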
